A study of Danio rerio with 16 samples.

Results

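Wnt ligand genes and Frizzled receptor genes were followed through the cell classes of the zebrafish tailbud, in normal embryos and after inhibition of BMP, FGF or Wnt signalling. The members were all genes of the deposited count matrix whose symbol starts with wnt or fzd followed by a digit. There were 36 of them, 22 wnt genes and 14 fzd genes, among 21301 genes. Transcripts had been counted in 130661 single cells from 16 libraries of tails cut off just behind the youngest somite, at the 10 to 12 somite stage. The DMH1 group had BMP signalling inhibited by DMH1, a small molecule that blocks BMP receptor kinases. The SU5402 group had FGF signalling inhibited by SU5402, a small molecule that blocks FGF receptor kinases. The notum-1 group had Wnt signalling inhibited through notum-1. The WT group was untreated wild type. Each group had 4 libraries. A library was a pool of 10 tails, or of 12 tails in the notum-1 group, so differences between single embryos cannot be seen. The sources used here give no doses or times and do not say how notum-1 was delivered. Nothing in the labels says that libraries of a group came from separate clutches, so p-values measure the spread between these libraries, which may be technical.

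Wnt ligands are secreted glycoproteins that need a lipid, attached by Porcupine, and the carrier Wntless to leave the cell. They bind Frizzled receptors, which with the co-receptors Lrp5 and Lrp6 lead to the stabilisation of beta-catenin and transcription through Tcf and Lef factors. Frizzled receptors also work with Ror2, Vangl and Celsr proteins in the planar polarity pathway, which orients cells as tissues narrow and lengthen. In the zebrafish tailbud, wnt8a and wnt3a are known for maintaining mesodermal progenitors through beta-catenin. In the same embryos wnt5b and wnt11 are known for their part in convergence and extension movements. Notum is a secreted enzyme that removes the lipid and so inactivates the ligand.

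Libraries held 4649 to 14162 cells and 12398958 to 76488460 UMIs, the molecular tags that mark single captured transcripts. Levels are given as CPM, a gene's UMIs scaled to the same total in every library, and a UMI stands for a captured transcript whatever its length. The median number of UMIs per cell was 6870 to 8139 in DMH1, 2424 to 8820 in SU5402, 4152 to 9972 in notum-1 and 3381 to 5637 in WT libraries. Libraries SU1 and SU2 were the shallowest of their group. Any pair of libraries shared 4 to 48 cell barcodes, at most 0.514% of the smaller library. notum1a, a zebrafish gene for Notum, had 251, 997, 376 and 692 CPM in the notum-1 libraries, against 2.78, 2.88, 3.13 and 3.87 CPM in the WT libraries. The authors gave 25 class names. Examples of their markers in WT were col2a1a at 1495 CPM in anterior notochord, msgn1 at 5350 in PZ 1, myl10 at 11320 in anterior adaxial cells and lmo2 at 9413 in lateral plate mesoderm (lmo2). Epidermis 2 carried the epidermal gene tp63 at 124 CPM beside the mesodermal gene meox1 at 410 CPM, so its values may mix cell types. The mean level of tp63 in 15 classes other than epidermis had a median of 6.77% of its all-cells level in DMH1, 14.1% in SU5402, 10.4% in notum-1 and 20.8% in WT, a measure of the background from free transcripts. The summed epidermal markers gave higher medians in the same classes, 23.9% in DMH1, 25.1% in SU5402, 18.9% in notum-1 and 45.0% in WT. By both measures the median share was higher in WT than in the treated groups, but not in every class. In differentiated neuronal cells tp63 was at 37.9% in SU5402 and 24.5% in WT. In intermediate mesoderm it was at 36.2% in notum-1 and 23.7% in WT. As CPM, tp63 in NMP was at 4.95 in DMH1, 19.8 in SU5402, 2.54 in notum-1 and 12.3 in WT. The row wnt11 carries the name that RefSeq gives as a synonym of wnt11f2, together with slb, and wnt11r is given there as a synonym of the gene now called wnt11. The rows wnt8a and wnt8a.1 belong to near-identical copies at the wnt8a locus, and how the counting divided transcripts between them is not known.

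In WT, wnt11, wnt11r and wnt8a.1 gave 26.3%, 22.5% and 19.8% of the wnt UMIs over all cells, and each was highest in a different class. Levels by class are a description, with no test, because the classes came from clustering these same cells. wnt11 was concentrated in anterior notochord, with 929, 639, 496 and 861 CPM in the 4 WT libraries. The class with the next highest level was NMP, taken as neuromesodermal progenitors, with 65.3 ± 7.1 CPM (SD, n = 4), and posterior notochord had 23.2 CPM. Every WT library had more wnt11 in anterior notochord than any library had in NMP. After each cell was thinned to 2000 UMIs, 50.3% of anterior notochord cells held a wnt11 UMI, against 11.7% of NMP cells and 0.612% of anterior adaxial cells. Without thinning the share in anterior notochord was 69.2%. Of the 34632 WT cells, 338 were too shallow for this thinning.

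wnt11r, the other wnt11 paralogue, was highest in anterior neuronal cells, with 209, 202, 179 and 208 CPM in the 4 WT libraries. Posterior neuronal cells had 81.5 CPM, dorsal neuronal cells 56.5 ± 15.9 CPM and anterior notochord, the lowest class, 5.86 CPM. All 4 libraries had more in anterior neuronal cells than in posterior neuronal cells. The levels of wnt11 and wnt11r were thus highest in different classes, and the lowest class of wnt11r was the highest of wnt11.

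wnt8a.1 and wnt8a, known as ligands of the progenitor domain, were not limited to progenitor classes, and in PZ 1 they had only 10.8 and 4.81 CPM. wnt8a.1 had 89.0 ± 15.7 CPM in dorsal neuronal cells and 78.5 ± 10.5 CPM in NMP, a difference smaller than the spread between libraries. Posterior neuronal cells and intermediate mesoderm followed with 46.5 and 46.0 CPM. wnt8a was highest in NMP with 34.2 ± 2.0 CPM and next in intermediate mesoderm with 26.5 CPM. wnt3a, the other progenitor ligand, had only 120 UMIs in all WT cells and reached 3.25 CPM in NMP, its highest class.

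wnt5b, a ligand of the planar polarity pathway, had no single site. It had 31.2 ± 4.3 CPM in NMP, 29.9 ± 9.8 CPM in intermediate mesoderm, 25.7 CPM in posterior notochord and 23.8 CPM in PZ 3, and NMP did not differ from intermediate mesoderm or posterior notochord beyond the spread between libraries. All 4 NMP libraries were above those of PZ 3. It reached a mean of 10 CPM in 13 of the 21 classes that were large enough to profile.

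The other ligands marked lateral mesoderm and epidermis. wnt4a was highest in lateral plate mesoderm (pax2), the class with the kidney regulator pax2a, with 54.2 ± 8.3 CPM. It had 35.4 ± 17.5 CPM in lateral plate mesoderm (hand2) and 30.9 CPM in anterior neuronal cells. wnt2bb, known in zebrafish for inducing the liver from lateral plate mesoderm, had 12.3 CPM in lateral plate mesoderm (hand2) and 10.6 CPM in intermediate mesoderm. wnt7aa and wnt6b had their highest level in epidermis 1, with 14.8 ± 3.3 and 18.4 ± 5.9 CPM. In both cases all 4 WT libraries were above those of epidermis 3, the next class. With a common limit on mitochondrial percent and genes per cell, 5 of the highest class levels moved by more than their SD over libraries. wnt7aa in epidermis 1 was then at 7.97 CPM, wnt2bb in lateral plate mesoderm (hand2) at 19.6 CPM and fzd4 there at 10.3 CPM. wnt4a in lateral plate mesoderm (pax2) was at 36.3 CPM and fzd7b in posterior adaxial cells at 125.6 CPM. wnt10a reached 9.29 CPM and wnt5a 9.12 CPM in epidermis 3.

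**Figure D1:**
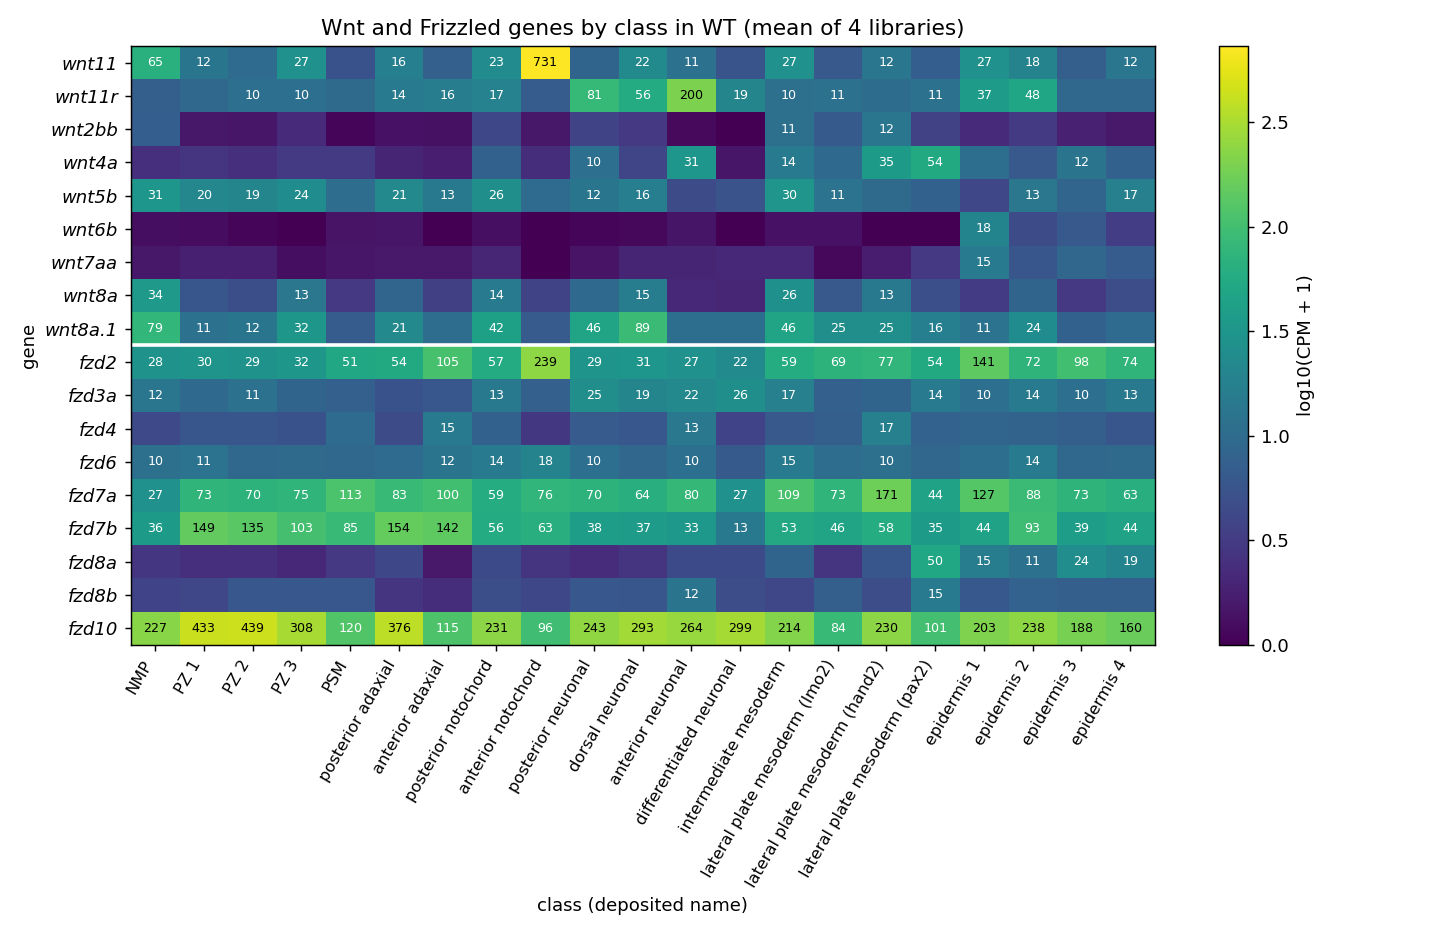
Mean level over the 4 WT libraries of 18 wnt and fzd genes (rows, wnt genes above fzd genes) in the 21 classes large enough to profile (columns), coloured by log10 of CPM + 1, with levels of at least 10 CPM printed in the cells. wnt11 is strongest in anterior notochord and wnt11r in anterior neuronal cells, while wnt8a.1 and wnt5b are at 10 CPM or more in 14 and 13 classes. fzd10, fzd2, fzd7a and fzd7b are at 10 CPM or more in every class.

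Among the Frizzled receptor genes, fzd10, fzd2, fzd7a and fzd7b each had a mean of at least 10 CPM in all 21 classes profiled, while no wnt gene did. fzd10 was highest in PZ 2 and PZ 1, the classes with the mesodermal progenitor gene msgn1, with 439 ± 24 and 433 ± 31 CPM, which did not differ beyond their spread. Posterior adaxial cells had 376 CPM, and the lowest class, lateral plate mesoderm (lmo2), had 84.0 CPM, beside 251 CPM over all WT cells. In that class the summed epidermal markers were at 39.3% of their all-cells level and tp63 at 20.8%. fzd7b had 13.5 CPM in its lowest class, beside 74.6 CPM over all WT cells. The part of free transcripts in these low levels was not tested. After thinning, 57.5% of PZ 2 cells held a fzd10 UMI, against 13.6% in lateral plate mesoderm (lmo2).

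The other 3 widespread receptors peaked elsewhere. fzd2 had 239 ± 36 CPM in anterior notochord, and all 4 libraries were above those of epidermis 1, which had 141 CPM. fzd7a was highest in lateral plate mesoderm (hand2) with 171 ± 23 CPM, followed by epidermis 1 with 127 CPM and PSM, taken as presomitic mesoderm, with 113 CPM. Its paralogue fzd7b had 154 ± 10 CPM in posterior adaxial cells, 149 CPM in PZ 1 and 142 CPM in anterior adaxial cells. The fzd7 genes are known in zebrafish for gastrulation movements. They are close paralogues, so the division of transcripts between them may be less certain than their sum.

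The other receptors were lower. fzd3a, a receptor of the planar polarity pathway, had 25.7, 25.3, 21.5 and 19.4 CPM in differentiated, posterior, anterior and dorsal neuronal cells, the 4 highest classes, and the SD over libraries was up to 8.97 CPM in them. fzd8a had 49.6 ± 16.1 CPM in lateral plate mesoderm (pax2), and all 4 libraries there were above those of epidermis 3, which had 24.3 CPM. fzd4 was highest in lateral plate mesoderm (hand2) with 16.7 ± 6.0 CPM, and fzd6 in anterior notochord with 18.1 ± 2.3 CPM. fzd8b had 14.6 ± 9.6 CPM in lateral plate mesoderm (pax2) and 11.5 ± 12.6 CPM in anterior neuronal cells, where 1 library, DJ2, was at 30.3 CPM and the other 3 were at 3.06, 6.80 and 5.93 CPM.

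Summed over each family, the classes differed more in ligand than in receptor transcripts. Over the 18 classes with at least 30 cells in every library, the sum of the wnt genes in WT ran from 34.0 CPM in PSM to 759 CPM in anterior notochord. The sum of the fzd genes ran from 303 CPM in lateral plate mesoderm (lmo2) to 714 CPM in PZ 1. NMP was high in ligands and low in receptors, with 229 CPM of wnt and 349 CPM of fzd transcripts. PZ 1 had the reverse, with 60.5 CPM of wnt and 714 CPM of fzd transcripts.

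The mix within a family also changed by class. wnt11 made up 96.1% of the wnt UMIs in anterior notochord, and wnt11r made up 76.0% of those in anterior neuronal and 47.1% in posterior neuronal cells. wnt8a.1 gave 42.5% in dorsal neuronal cells and 34.2% in NMP, and wnt5b gave 33.2% in PZ 1. Among receptors, fzd10 gave 73.6% of the fzd UMIs in differentiated neuronal cells and 65.1% in NMP, but 29.9% in PSM. fzd2 gave 46.9% in anterior notochord, where fzd10 gave 18.7%. In anterior adaxial cells fzd7b was the leading receptor with 28.5%.

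**Figure D2:**
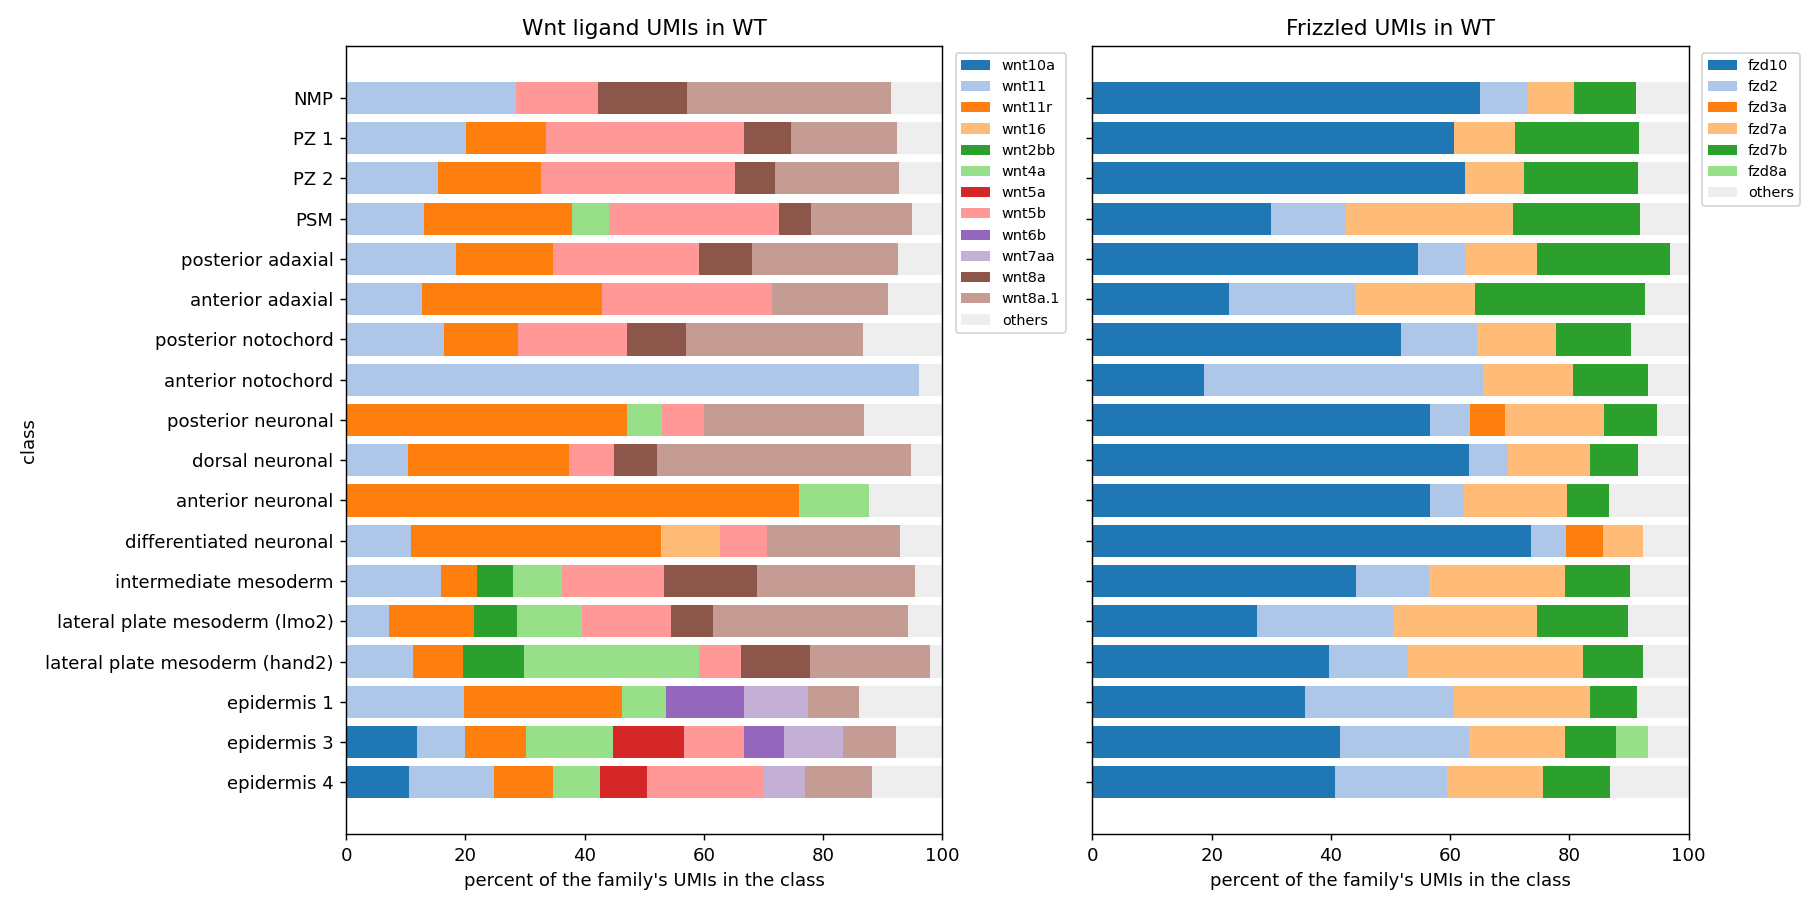
Share of each gene in the wnt UMIs and, in a separate panel, in the fzd UMIs of 18 classes in WT, as the mean over 4 libraries of the percent of the family's UMIs, with genes under 5% drawn together. wnt11 fills nearly the whole bar of anterior notochord (96.1%), and fzd10 is the largest part in most classes.

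Of the other members, 11 had under 30 UMIs over all WT cells, and 4 of these (wnt2, wnt7ab, wnt8b and fzd9a) had none. The remaining 4 classes were too small to profile by library and are given as pooled WT counts with exact Poisson intervals, which cover counting error only. In the 40 cells of Kupffer's vesicle, the ciliated organ of left-right patterning, wnt8a.1 was at 165 CPM (95% interval 114 to 232), wnt8a at 110 CPM (69.0 to 167) and wnt5b at 75.0 CPM (42.0 to 124). The 9 cells of the polster class held 6 UMIs of fzd8b, or 65.2 CPM (23.9 to 142).

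For the treatments, each library's UMIs were added up over all of its cells, scaled by TMM factors, and tested with edgeR's quasi-likelihood test with Benjamini-Hochberg adjustment over 16399 genes. A gene was called changed at an adjusted p under 0.05. Of the 36 members, 29 passed the filter on low counts. The filter left out wnt2, wnt4b, wnt7ab, wnt8b, fzd1, fzd5 and fzd9a. In a sum over all cells, fewer cells of a type and less RNA per cell cannot be told apart. In DMH1, 7 members rose and 4 fell, where 22.1% of all genes tested rose and 20.3% fell. In SU5402, 7 rose and 4 fell, against 23.0% and 19.6% of all genes. In notum-1, 3 rose and 6 fell, against 20.9% and 17.2% of all genes. The shares of members called, 24.1% higher and 13.8% lower in both DMH1 and SU5402 and 10.3% higher and 20.7% lower in notum-1, are near or below those of all genes and are no result about the members as a set. The median log2 fold change of the members was 0.23, 0.14 and 0.19 in DMH1, SU5402 and notum-1, beside 0.06, 0.11 and 0.03 over all genes.

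Counted by family, in DMH1 7 of 18 wnt genes rose and 2 fell, and 2 of 11 fzd genes fell with none rising. In SU5402, 4 wnt genes rose and 1 fell, and 3 fzd genes rose and 3 fell. In notum-1, 3 wnt genes rose and 1 fell, and 5 fzd genes fell with none rising. These counts are to be read against the shares of all genes given above. The sum of all wnt genes was 139 ± 8 CPM in DMH1, 142 ± 16 CPM in SU5402, 184 ± 36 CPM in notum-1 and 136 ± 8 CPM in WT libraries. The sum of all fzd genes was 393 ± 26 CPM in DMH1, 450 ± 46 CPM in SU5402, 409 ± 71 CPM in notum-1 and 498 ± 39 CPM in WT libraries. These sums were divided by TMM factors, which were 0.730 to 0.828 in notum-1 and 0.982 to 1.03 in WT libraries. The higher wnt sum in notum-1 depends on that scaling. With scaling by the library total alone, the median of all genes moved to 0.20, 0.34 and -0.37 in DMH1, SU5402 and notum-1, and the split of members became 8 higher and 3 lower, 8 higher and 2 lower, and 1 higher and 8 lower. The 3 comparisons share the 4 WT libraries, so their values are not independent of each other.

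**Figure D3:**
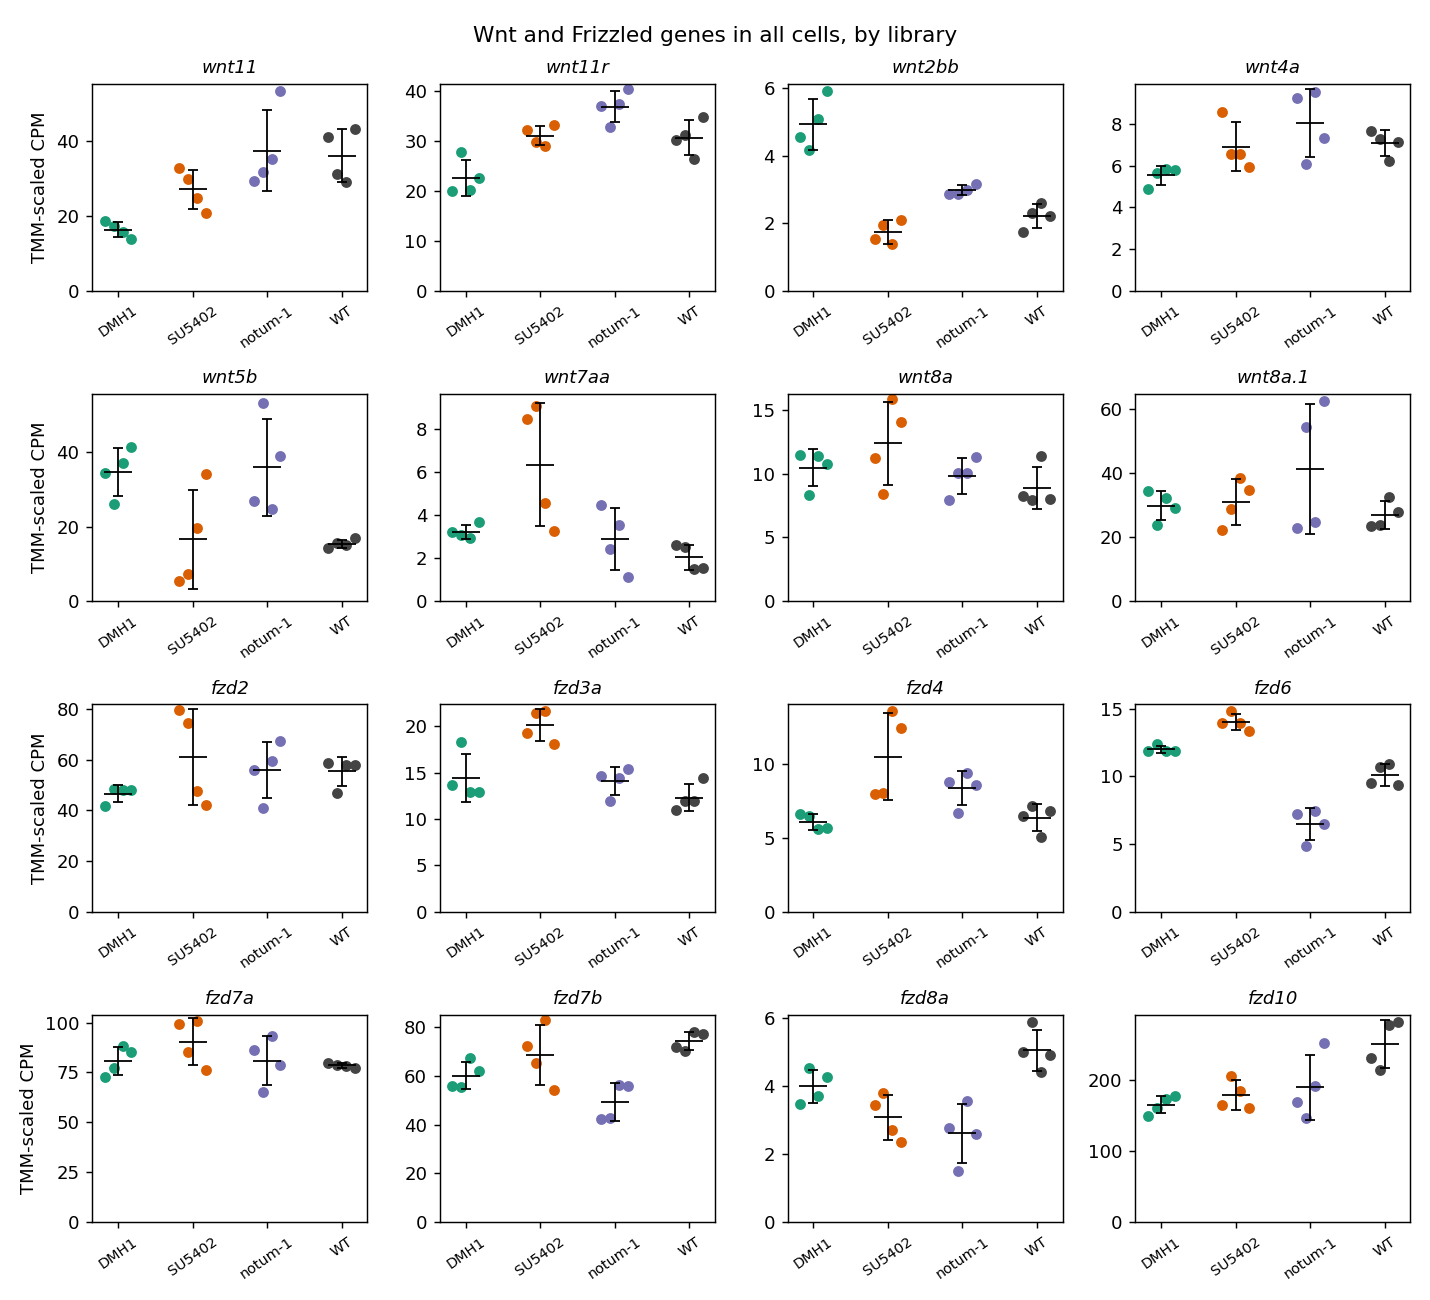
TMM-scaled CPM over all cells of 16 wnt and fzd genes, a panel for each gene, with a point for each library and the mean and SD of 4 libraries for DMH1, SU5402, notum-1 and WT. wnt5b is higher in every DMH1 and notum-1 library than in any WT library, and in SU5402 it runs from 5.47 to 34.1 CPM.

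In DMH1, wnt2bb and wnt5b rose and wnt11, wnt11r, fzd10 and fzd8b fell. wnt2bb had 4.56, 4.17, 5.10 and 5.92 CPM in the DMH1 libraries, against 1.74, 2.30, 2.60 and 2.22 CPM in the WT libraries. All DMH1 libraries were above all WT libraries, and the log2 fold change was 1.16 ± 0.18 (SE, n = 4 each, edgeR adjusted p = 9.75e-05). wnt11 had 18.5, 17.4, 15.6 and 13.8 CPM in DMH1, against 40.8, 31.1, 29.0 and 43.1 CPM in WT. It was lower in 4 of 4 DMH1 libraries, with a log2 fold change of -1.14 ± 0.19 (edgeR adjusted p = 0.000265). wnt11r fell by 0.44 on the log2 scale (edgeR adjusted p = 0.00819), with 20.0, 27.8, 20.2 and 22.6 CPM in DMH1 and 30.2, 31.3, 26.4 and 34.9 CPM in WT, where 1 DMH1 library overlaps the WT range. With a common limit on mitochondrial percent and genes per cell its direction turned, to 0.19 (edgeR adjusted p = 0.383), and with scaling by the library total its call was lost.

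wnt5b had 34.5, 26.1, 37.1 and 41.4 CPM in the DMH1 libraries, against 14.3, 15.6, 15.2 and 16.9 CPM in the WT libraries. The groups do not overlap, and the log2 fold change was 1.17 ± 0.43 (edgeR adjusted p = 0.0375). That call was lost with no filter on low counts and when DMH0, DMH3, DMH4 or any 1 WT library was left out, with an adjusted p of at most 0.0896 and a log2 fold change of 1.07 to 1.46 over all alternatives. The SU5402 libraries, which vary most in wnt5b, enter the same estimate of spread.

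fzd10 had 149, 161, 173 and 177 CPM in the DMH1 libraries, against 230, 214, 277 and 281 CPM in the WT libraries. Every DMH1 library was below every WT library, and the log2 fold change was -0.60 ± 0.15 (edgeR adjusted p = 0.00445). fzd8b fell by 0.90 (edgeR adjusted p = 0.00299). With the common cell limit both calls were lost, with log2 fold changes of -0.37 for fzd10 and -0.40 for fzd8b. That limit kept 396 of 6430 cells in DMH2 and 2517 of 8482 in DMH4, the fewest and the most of the DMH1 libraries. Results under it rest on fewer cells. The 5 other ligands that rose in DMH1 were low. They were wnt16, known in zebrafish for its role in the somites that instruct blood stem cells, with a mean of 2.58 CPM in DMH1 and 1.20 CPM in WT, and wnt3, wnt9a, wnt9b and wnt7ba, each under 1 CPM in both groups. The wnt16 call was lost with thinned counts. The call for wnt7ba was lost with RLE factors, no filter, thinned counts and the common cell limit, and without any of 7 libraries (DMH0, DMH3, DMH4 and the 4 WT libraries), with log2 fold changes of 0.87 to 1.57 over all alternatives. That for wnt9b was lost without DMH2, DMH3, DMH4, MG1 or MG2, with values of 1.07 to 1.57. Among members that did not pass, fzd7b had a mean of 60.1 CPM in DMH1 and 74.3 CPM in WT, and wnt4a 5.53 and 7.09 CPM in the same order.

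In SU5402, wnt7aa, fzd3a, fzd4 and fzd6 rose and wnt5a, fzd10, fzd8a and fzd8b fell. fzd3a had 19.3, 21.4, 21.6 and 18.1 CPM in the SU5402 libraries, against 11, 11.9, 11.9 and 14.4 CPM in the WT libraries. The groups do not overlap, with a log2 fold change of 0.71 ± 0.13 (SE, n = 4 each, edgeR adjusted p = 0.000542). fzd4 had 7.95, 8.02, 13.6 and 12.4 CPM in SU5402, against 6.44, 7.14, 5.05 and 6.81 CPM in WT, which gave a log2 fold change of 0.73 ± 0.18 (edgeR adjusted p = 0.00385). fzd6 rose by 0.47 (edgeR adjusted p = 0.00599), with means of 14 CPM in SU5402 and 10.1 CPM in WT. Its call was lost with the common cell limit, at 0.44. That limit kept 44 of 4649 cells in SU1 and 278 of 7616 in SU2.

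Of the ligands highest in epidermis, wnt7aa rose and wnt5a fell in SU5402, and wnt6b and wnt10a did not pass. wnt7aa had 8.46, 9.07, 4.56 and 3.25 CPM in the SU5402 libraries, against 2.59, 2.50, 1.51 and 1.53 CPM in the WT libraries. All SU5402 libraries were above the WT range and SU1 and SU2 were the highest, and the log2 fold change was 1.61 ± 0.37 (edgeR adjusted p = 0.00234). With the common cell limit, and without SU1 and SU2 together, a setting chosen after the data were seen, that call was lost, and the log2 fold change was 0.93 to 1.89 over all alternatives. wnt5a had 0.0636, 0, 0.104 and 0.167 CPM in SU5402, against 0.909, 0.979, 1.02 and 0.918 CPM in WT. Its log2 fold change was -3.21 ± 0.59 (edgeR adjusted p = 0.000415), and it was lower in 4 of 4 libraries.

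fzd10 had 165, 205, 184 and 160 CPM in the SU5402 libraries, below all 4 WT libraries, with a log2 fold change of -0.49 ± 0.15 (edgeR adjusted p = 0.0152). The fzd8a call was lost with scaling by the library total and with thinned counts, at values of -1.37 to -0.48 over all alternatives. The fzd10 call was lost without the WT library MG2 and with scaling by the library total, and the log2 fold change was -0.60 to -0.24 over all alternatives. wnt16 and wnt3 rose in SU5402 by 1.35 and 1.53 on the log2 scale, and wnt8a by 0.48 (edgeR adjusted p = 0.0493). The call for wnt8a was lost in 12 of 16 alternatives, among them leaving out SU1, SU3, SU4, DJ1, DJ2 or MG2, where the log2 fold change stayed between 0.34 and 0.74 over all alternatives.

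wnt5b did not pass in SU5402, and its libraries were far apart: SU1 and SU2 had 5.47 and 7.33 CPM, below all WT libraries, while SU3 and SU4 had 19.6 and 34.1 CPM, above all of them. SU1 and SU2 were also the libraries with the fewest UMIs per cell, and without them wnt5b passed at 0.79 (edgeR adjusted p = 0.0277). wnt11 had 32.7, 29.7, 24.8 and 20.8 CPM in SU5402 and did not pass (edgeR adjusted p = 0.0909). It passed with the common cell limit, without SU1, and without SU1 and SU2, with log2 fold changes of -1.30 to -0.17 over all alternatives.

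In notum-1, 5 of 11 fzd genes fell, beside 17.2% of all genes tested. They were fzd7b, fzd8b, fzd6, fzd8a and fzd10. fzd7b had 42.5, 42.6, 56.3 and 55.6 CPM in the notum-1 libraries, against 71.8, 70.4, 78.0 and 77.1 CPM in the WT libraries. The groups do not overlap, and the log2 fold change was -0.59 ± 0.13 (SE, n = 4 each, edgeR adjusted p = 0.00303). fzd8b had 1.57, 1.41, 1.25 and 1.06 CPM in notum-1, against 4.19, 6.93, 3.55 and 4.32 CPM in WT, which gave a log2 fold change of -1.83 ± 0.22 (edgeR adjusted p = 3.00e-05). fzd6 and fzd8a fell by 0.64 and 0.96 on the log2 scale and were also below WT in 4 of 4 libraries.

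fzd10 had 169, 146, 191 and 251 CPM in the notum-1 libraries, against 230, 214, 277 and 281 CPM in the WT libraries. The library WNT_MG2 lies within the WT range. The log2 fold change was -0.41 ± 0.15 (edgeR adjusted p = 0.0426), and this call was lost with the common cell limit, with thinned counts, with the 8 libraries alone, and without WNT_DJ1, WNT_DJ2, WNT_MG1, MG1 or MG2, with values of -0.79 to -0.30 over all alternatives.

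Among ligands in notum-1, wnt5b had 26.9, 53.2, 24.6 and 39.0 CPM, against 14.3, 15.6, 15.2 and 16.9 CPM in WT. All notum-1 libraries were above all WT libraries, with a log2 fold change of 1.22 ± 0.43 (edgeR adjusted p = 0.0355). The call was lost with scaling by the library total, with thinned counts, with no filter on low counts, and without WNT_DJ2, WNT_MG2 or any 1 WT library, where the log2 fold change stayed between 0.82 and 1.33 over all alternatives. wnt9a had 1.19, 2.79, 0.513 and 0.621 CPM in notum-1, against 0.110, 0.0768, 0.0971 and 0 CPM in WT, which gave a log2 fold change of 4.04 ± 0.65 (edgeR adjusted p = 0.000259). wnt5a fell by 1.85 and wnt3 rose by 1.41 on the log2 scale, both from under 1 CPM. The wnt3 libraries overlap those of WT, and its call was lost with scaling by the library total (edgeR adjusted p = 0.0516). wnt8a.1 did not pass (edgeR adjusted p = 0.0923), and its libraries split into 23.0 and 24.7 CPM in WNT_DJ1 and WNT_MG1 and 54.5 and 62.7 CPM in WNT_DJ2 and WNT_MG2, against 23.5, 23.8, 32.7 and 27.8 CPM in WT. It passed without WNT_DJ1, at 0.81, and without WNT_MG1, at 0.77. WNT_DJ2 and WNT_MG2 also had the highest notum1a levels, 997 and 692 CPM, in the reverse order of their wnt8a.1 levels. A link between the levels was not tested.

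Of the members with higher levels, 4 passed in no treatment over all cells, though each passed in some alternative (fzd2 and wnt4a in DMH1, fzd7a in DMH1, SU5402 and notum-1, wnt8a.1 in notum-1). In notum-1 fzd7a passed with scaling by the library total, at -0.36 (edgeR adjusted p = 0.0336), against 0.041 in the main test. fzd2 had 41.7 to 48.5 CPM in DMH1, 41.9 to 79.7 CPM in SU5402, 41.0 to 67.5 CPM in notum-1 and 46.9 to 58.8 CPM in WT libraries. fzd7a had 72.8 to 88.1 CPM in DMH1, 76.3 to 101 CPM in SU5402, 65.0 to 93.4 CPM in notum-1 and 77.3 to 80.0 CPM in WT libraries. The others were wnt4a, with 4.87 to 5.82, 5.93 to 8.58, 6.07 to 9.53 and 6.24 to 7.66 CPM in the same order of groups, and wnt8a.1. The sum of wnt8a and wnt8a.1, which does not depend on how transcripts were divided between them, was 40.3 ± 6.0 CPM in DMH1, 43.4 ± 9.7 CPM in SU5402, 51.1 ± 21.5 CPM in notum-1 and 35.9 ± 5.8 CPM in WT libraries.

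Within classes, the same test was run on the sums of each of the 18 classes, which gave 251 pairs of a member and a class. In DMH1, 32 pairs were higher and 32 lower, beside 18.6% and 18.6% of all gene-class pairs. In SU5402, 41 were higher and 17 lower, beside 19.8% and 18.7%. In notum-1, 35 were higher and 34 lower, beside 15.6% and 12.5% of all pairs. Of the 116 wnt pairs, 26 rose and 20 fell in DMH1, 17 rose and 6 fell in SU5402, and 28 rose and 6 fell in notum-1. Of the 135 fzd pairs, 6 rose and 12 fell in DMH1, 24 rose and 11 fell in SU5402, and 7 rose and 28 fell in notum-1. These counts, and the counts of classes for single genes below, are to be read against the shares of all gene-class pairs. With scaling by the library total the notum-1 pairs became 10 higher and 89 lower. The SU5402 pairs became 55 higher and 13 lower.

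**Figure D4:**
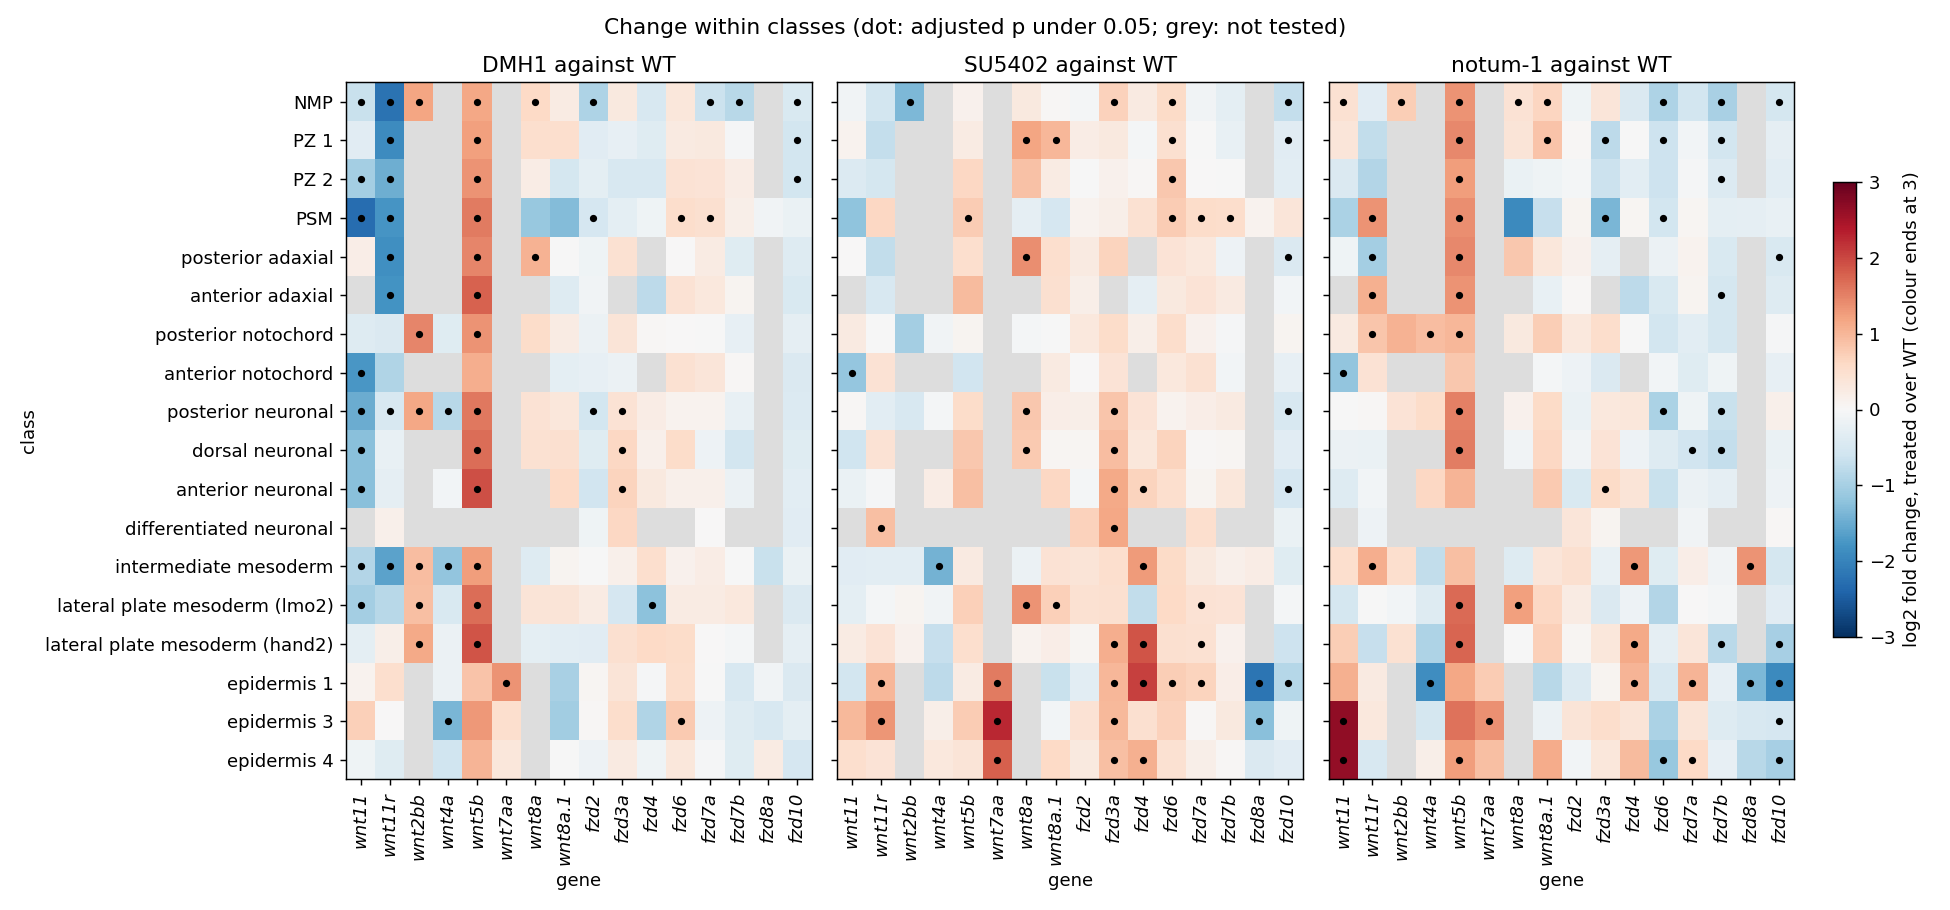
Log2 fold change against WT of 16 wnt and fzd genes (columns) in 18 classes (rows), in 3 panels for DMH1, SU5402 and notum-1; the colour scale ends at 3 in both directions, a dot marks an edgeR adjusted p under 0.05, and grey marks pairs that were not tested. wnt5b is higher in most rows of the DMH1 and notum-1 panels, with 13 and 12 of 17 classes called. The notum-1 count depends on the TMM scaling.

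wnt5b rose in 13 of 17 classes tested in DMH1 and in 12 of 17 in notum-1, and in none did it fall. With scaling by the library total, only 10 pairs of all members were higher in notum-1, so not all 12 calls there were kept. Before TMM scaling, wnt5b had 57.9 CPM in notum-1 and 31.2 CPM in WT in NMP. In posterior notochord it had 39.3 and 25.7 CPM in the same order. In DMH1 the classes ranged from 0.86 to 1.94 on the log2 scale, with the highest value in anterior neuronal cells. In lateral plate mesoderm (hand2) wnt5b had 27.0, 25.8, 30.1 and 28.7 CPM in the DMH1 libraries, against 6.61, 4.66, 14 and 6.57 CPM in the WT libraries, a log2 fold change of 1.88 ± 0.32 (SE, n = 4 each, edgeR adjusted p = 0.000192). In notum-1 the same class had 22.9, 31.6, 20.0 and 26.9 CPM of wnt5b, a log2 fold change of 1.75 ± 0.35 (edgeR adjusted p = 0.00113). Both groups were above all WT libraries.

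In NMP, the WT class with the highest level, wnt5b had 72.8, 51.1, 66.7 and 78.2 CPM in DMH1 libraries, 66.4, 113, 44.7 and 82.8 CPM in notum-1 libraries, and 28.6, 35.5, 28.0 and 28.8 CPM in WT libraries. It thus rose both where it was high and where it was low in WT. In anterior neuronal cells wnt5b was at 36.6% of its all-cells level in DMH1 and 22.9% in WT. Beside these, tp63 was at 6.27% and 18.3%, and the summed epidermal markers at 22.1% and 42.3%, in the same order. The part of free transcripts in the rise in low classes was not tested. In SU5402, wnt5b rose in 1 of 17 classes, PSM, by 0.77. The libraries SU1 and SU2 were lower than SU3 and SU4 in NMP too, at 9.15 and 14.3 CPM, against 32.2 and 66.2 CPM. The lateral plate mesoderm (hand2) class itself made up 4.24% of cells in DMH1, 4.19% in SU5402, 2.87% in notum-1 and 2.46% in WT libraries.

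wnt11 fell in its main class, anterior notochord, in all 3 treatments. It had 203, 225, 224 and 197 CPM in DMH1 libraries, 435, 414, 212 and 221 CPM in SU5402 libraries, 431, 133, 359 and 304 CPM in notum-1 libraries, and 912, 629, 471 and 844 CPM in WT libraries. Every treated library was below every WT library. The log2 fold change was -1.75 ± 0.30 in DMH1 (edgeR adjusted p = 0.000294), -1.17 in SU5402 and -1.19 in notum-1, and these share the WT libraries. Before TMM scaling, the summed level of the notochord markers noto, tbxta, shha, col2a1a and twist2 in anterior notochord was 4374 CPM in DMH1, 5250 CPM in SU5402, 3406 CPM in notum-1 and 4489 CPM in WT. On that unscaled measure wnt11 had means of 223.3, 379.5, 245.1 and 731.2 CPM there, in the same order. In DMH1 wnt11 fell in 9 of 16 classes tested, among them PSM by 2.28 and posterior neuronal cells by 1.48. In PSM, wnt11 was at 5.34% of its all-cells level in DMH1 and 12.0% in WT, beside 4.79% and 15.7% for tp63 in the same order. In 2 of the 9 classes, PSM and lateral plate mesoderm (lmo2), the WT level was at or under the tp63 share. In 5 of the 9 it was at or under that of the summed epidermal markers. Anterior notochord and NMP were above both. The part of free transcripts in these falls was not tested. In SU5402 anterior notochord was the single class of 16 with a call.

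In notum-1 wnt11 also rose in 3 classes, NMP by 0.46, epidermis 3 and epidermis 4. Before TMM scaling, NMP had 66.1 CPM in notum-1 and 65.3 CPM in WT, so the rise in NMP depends on the scaling. Epidermis 3 had 11.7, 66.7, 19.5 and 70.2 CPM in the notum-1 libraries, against 5.33, 8.91, 4.15 and 5.0 CPM in the WT libraries, a log2 fold change of 2.67 ± 0.53 (edgeR adjusted p = 0.00179). Epidermis 4 had 26.9, 105, 12.9 and 123 CPM in notum-1 and 7.81, 7.77, 9.42 and 20.5 CPM in WT, where the groups overlap (log2 fold change 2.63 ± 0.59, edgeR adjusted p = 0.00439). In both classes WNT_DJ2 and WNT_MG2 were the high libraries, and they also had the most notum1a. Of these, WNT_MG2 had more wnt11 but less notum1a than WNT_DJ2, and a link with notum1a was not tested. Beside these wnt11 levels, and before TMM scaling, the summed notochord markers in epidermis 3 were at 21.8 CPM in notum-1 and 61.6 CPM in WT. The summed epidermal markers there were at 1810 CPM in notum-1 and 3587 CPM in WT, also unscaled. Their part in the result was not tested.

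**Figure D5:**
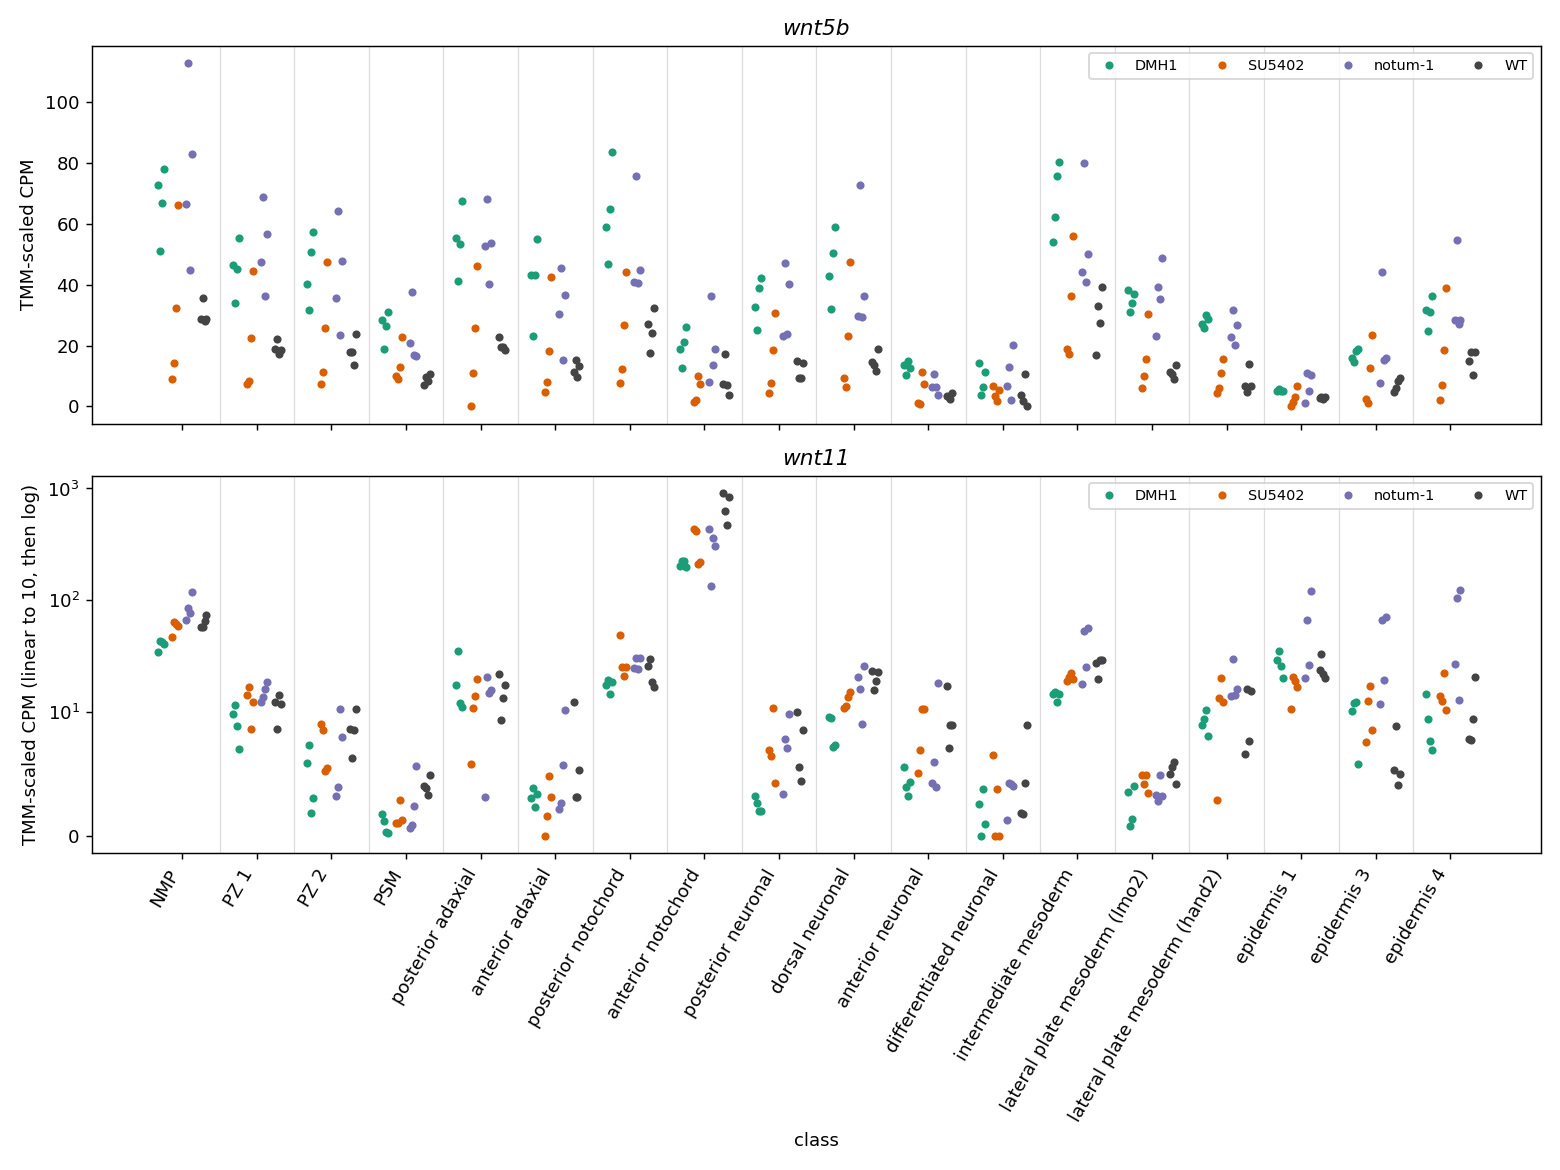
TMM-scaled CPM of wnt5b and, in a separate panel, of wnt11 (with an axis that is linear up to 10 CPM and logarithmic above) in each class, a point for each library coloured by group (DMH1, SU5402, notum-1, WT). The wnt5b points of DMH1 and notum-1 lie above those of WT in most classes, and wnt11 is far higher in anterior notochord than elsewhere, with all 12 treated libraries below the 4 WT libraries there.

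wnt11r fell in 8 of 18 classes in DMH1 and rose in none. The calls were in progenitors and mesoderm and in posterior neuronal cells, with -2.22 in NMP, -1.89 in PZ 1 and -0.49 in posterior neuronal cells. In posterior adaxial cells the mean was 3.52 ± 2.06 CPM in DMH1 and 13.3 ± 1.9 CPM in WT (log2 fold change -1.84 ± 0.41, edgeR adjusted p = 0.00104), and no library overlaps. The WT level in NMP was 20.4% of the all-cells level, beside 20.2% for tp63 there, and the DMH1 level 5.34%, beside 4.92%. In 6 of the 8 classes, NMP, PZ 1 and posterior adaxial cells among them, the WT level was at or under the share of the summed epidermal markers, and in none under that of tp63. The part of this background in the falls was not tested. In anterior adaxial cells it fell by 1.79. In anterior neuronal cells, its highest class, it had 159 ± 22 CPM in DMH1 and 192 ± 15 CPM in WT and did not pass. In notum-1 wnt11r rose in 4 classes, among them PSM by 1.35, and fell in posterior adaxial cells by 1.02. Its posterior adaxial level was 17.7% of the all-cells level in notum-1 and 45.7% in WT, beside 19.7% and 49.8% for the summed epidermal markers. In intermediate mesoderm, another class with a rise, it was 64.7% in notum-1, beside 66.0%. The part of background in these calls was not tested.

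The mesodermal ligand wnt2bb rose in all 6 classes where it was tested in DMH1, by 0.90 to 1.46. In NMP it had 11.5, 10.1, 14.1 and 16.4 CPM in DMH1 libraries, against 4.88, 6.54, 4.14 and 8.17 CPM in WT libraries. In SU5402 it fell in NMP by 1.35, and in notum-1 it rose there by 0.74. Before TMM scaling, wnt2bb in NMP had 7.26 CPM in notum-1 and 6.1 CPM in WT. The size of the notum-1 rise thus depends on the scaling. wnt16 rose in NMP, PZ 1 and posterior adaxial cells in DMH1 and also in SU5402. In posterior adaxial cells it had 19.5, 8.74, 12.0 and 6.86 CPM in DMH1, against 4.58, 0.778, 4.90 and 4.37 CPM in WT (log2 fold change 1.71 ± 0.45, edgeR adjusted p = 0.0048). In intermediate mesoderm wnt7ba had 14.5, 5.80, 13.8 and 20.5 CPM in DMH1, against 1.94, 4.11, 2.15 and 4.48 CPM in WT, which gave a log2 fold change of 2.14 ± 0.63 (edgeR adjusted p = 0.0141). wnt4a fell in 3 classes in DMH1 and, in SU5402, in intermediate mesoderm by 1.43 (edgeR adjusted p = 0.00392). There it had 10.4, 5.73, 3.20 and 3.92 CPM in SU5402 and 14.2, 13.2, 8.61 and 16.8 CPM in WT, with 1 library overlapping.

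In the epidermal classes SU5402 raised wnt7aa and lowered wnt5a in all 3 classes where each was tested. In epidermis 3 wnt7aa had 45.5, 47.6, 26.3 and 29.2 CPM in SU5402 libraries, against 8.23, 8.55, 5.70 and 6.67 CPM in WT libraries, a log2 fold change of 2.26 ± 0.30 (SE, n = 4 each, edgeR adjusted p = 5.98e-06). It rose by 1.55 in epidermis 1 and by 1.79 in epidermis 4. wnt5a in epidermis 3 had 1.26, 0, 0.329 and 1.95 CPM in SU5402, against 5.81, 9.62, 10.9 and 7.50 CPM in WT. In notum-1 wnt5a fell in the same 3 classes, by 1.23 to 4.21. wnt9a in epidermis 1 had 6.97, 22.3, 3.59 and 4.36 CPM in notum-1, against 0.777, 0.831, 0.646 and 0 CPM in WT, and rose by 3.85.

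Receptor genes changed by class as well. fzd3a rose in 9 of 17 classes in SU5402, by 0.69 to 1.15, and in the anterior, dorsal and posterior neuronal classes in DMH1. In anterior neuronal cells it had 34.3, 41.4, 43.7 and 54.6 CPM in SU5402 libraries, against 23.5, 15.6, 17.4 and 26.2 CPM in WT libraries, with no overlap. fzd4 rose in 5 of 15 classes in SU5402. In epidermis 1 it had 23.2, 16.7, 46.5 and 29.7 CPM in SU5402 and 9.71, 6.37, 6.46 and 5.08 CPM in WT (log2 fold change 2.06 ± 0.32, edgeR adjusted p = 6.3e-05). In lateral plate mesoderm (hand2), its highest WT class, it had 31.1, 26.6, 88.0 and 84.8 CPM in SU5402 and 19.8, 20.6, 10.2 and 10.9 CPM in WT, which gave a log2 fold change of 1.89 ± 0.36. fzd8a fell in epidermis 1 in SU5402 by 2.19 (edgeR adjusted p = 0.000135), with 2.11, 3.43, 3.93 and 1.37 CPM in SU5402 and 9.32, 11.1, 11.6 and 23.4 CPM in WT.

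In notum-1, fzd10 fell in 6 of 18 classes and most in epidermis 1, with 54.2, 28.5, 54.9 and 63.9 CPM in notum-1 libraries, against 141, 141, 237 and 228 CPM in WT libraries. The log2 fold change there was -1.92 ± 0.23 (SE, n = 4 each, edgeR adjusted p = 9.89e-06). In PZ 1, where fzd10 was among the highest in WT, it had 346 ± 83 CPM in notum-1 and 416 ± 35 CPM in WT and did not pass. fzd7b fell in 7 of 17 classes, with the largest change in NMP, -0.97. fzd6 fell in 5 of 17 classes and fzd8b in 6 of 8. In PZ 1 fzd8b was at 0.305 ± 0.110 CPM in notum-1 and 2.93 ± 0.37 CPM in WT, with a log2 fold change of -3.18. In anterior neuronal cells fzd8b fell by 3.55 in notum-1 and by 1.99 in SU5402. WT library DJ2, at 29.0 CPM on the TMM scale beside 2.94, 6.47 and 5.74 CPM in the other 3, carries much of the WT mean there. The SU5402 call was lost with no filter on low counts and with only the 8 libraries compared. It was also lost without DJ2, without SU3 and without SU4, with values of -2.56 to -0.76 over all alternatives. The wnt5b rise in dorsal neuronal cells of notum-1 embryos (1.54 ± 0.48, edgeR adjusted p = 0.0262) was lost with scaling by the library total. It was also lost without WNT_DJ2, DJ1, DJ2 or MG1, with values of 1.05 to 1.70 over all alternatives.

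When the class shares of every library were held at the WT mean, the changes over all cells kept their size for most genes. The difference in log2 CPM of wnt5b was 1.19 in DMH1 and 1.18 in notum-1, that of wnt11 -1.14 in DMH1, and that of fzd10 -0.53 in DMH1 and -0.40 in SU5402. wnt11 in SU5402 differed by -0.63 at constant shares, against -0.41 over all cells. wnt4a in DMH1 differed by -0.61 at constant shares, against -0.33 over all cells. Each of these groups did not overlap with WT and had the smallest p that a two-sided exact permutation test of 4 libraries against 4 can give, 0.0286. After Benjamini-Hochberg adjustment over 48 such tests the smallest value was 0.0686, so none passed.

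The other genes of the pathway were read from 5 lists of 65 genes, of which 53 were tested. In DMH1 16 rose and 8 fell, in SU5402 17 rose and 5 fell, and in notum-1 9 rose and 12 fell. Over all genes 22.1% rose and 20.3% fell in DMH1, 23.0% and 19.6% in SU5402, and 20.9% and 17.2% in notum-1, and the counts by list below are to be read against these shares. dkk1b, a secreted antagonist that blocks Lrp5 and Lrp6, fell in all 3 treatments, with 10.0 ± 1.6 CPM in DMH1, 16.7 ± 3.5 CPM in SU5402, 19.2 ± 4.4 CPM in notum-1 and 62.1 ± 17.0 CPM in WT libraries. The log2 fold changes were -2.63, -1.89 and -1.70. sfrp1b, a secreted protein with a Frizzled-like domain, fell by 1.19 in DMH1 libraries, 1.40 in SU5402 libraries and 1.27 in notum-1 libraries, beside a WT level of 5.05 CPM.

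Of the 14 tested genes that act inside the cell in the beta-catenin pathway, 6 rose and 1 fell in DMH1, 9 rose and none fell in SU5402, and none rose and 4 fell in notum-1. apc, a part of the complex that degrades beta-catenin, rose by 1.02 in DMH1 and 1.17 in SU5402, with means of 42.0 and 46.3 CPM beside 20.7 CPM in WT. axin1, the scaffold of that complex, rose by 0.89 in DMH1 and 0.85 in SU5402. axin2, a direct target and feedback inhibitor of the pathway, was looked at after its values were seen. It had 55.2, 57.5, 65.6 and 55.1 CPM in DMH1 libraries, 68.3, 69.3, 104 and 69.9 CPM in SU5402 libraries, 28.3, 18, 30.6 and 28.1 CPM in notum-1 libraries, and 42.0, 39.4, 45.1 and 41.2 CPM in WT libraries. It rose by 0.48 and 0.89 in DMH1 and SU5402 and fell by 0.68 in notum-1.

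Of the 10 tested co-receptor and turnover genes, 5 rose and none fell in DMH1, 5 rose and 1 fell in SU5402, and 3 rose and 1 fell in notum-1. Of the 10 planar polarity genes, 4 rose in DMH1, 3 rose in SU5402, and 2 rose and 2 fell in notum-1. celsr1b, a cadherin of that pathway, rose by 1.05 in SU5402, with 9.27 ± 0.86 CPM in SU5402 and 4.45 ± 0.54 CPM in WT. It also rose in DMH1, by 0.565, with 6.59 ± 0.83 CPM. The secretion genes wls and porcnl both fell in DMH1, and porcnl fell in notum-1. dkk1a rose in notum-1 by 2.64, with 2.65 ± 1.21 CPM in notum-1 and 0.406 ± 0.291 CPM in WT.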

How the data were processed

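Single-cell transcripts of zebrafish tails were counted with the 10x Genomics 3′ droplet protocol after papain dissociation, per the labels' protocols. The authors deposited raw UMI counts as 1 matrix of 21301 genes by 130661 cells, of which 13 genes had no UMI, with a table of each cell's library, treatment, cluster name and mitochondrial percent. Per the submitters' processing notes Cell Ranger and GRCz11 were used, without versions or settings. The authors had filtered the cells with limits that differ between libraries, as the deposited values show: the highest mitochondrial percent was 2.98 to 9.99. The sources used here do not say how doublets were treated, and no doublet caller was run. Of the 16 library names, 4 match a sample and 12 match a group only. No library was left out.

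The members and lists were chosen with earlier results of these data known. UMIs were summed per library and per library and class, for 18 classes in which no library had fewer than 30 cells. The test was the robust quasi-likelihood F test of edgeR 4.0.16 after filterByExpr and TMM scaling (R 4.3.3), all 16 libraries in 1 fit, with Benjamini-Hochberg adjustment over all genes tested and a threshold of 0.05. The SE is the absolute log2 fold change divided by the square root of F. Levels of genes in the treatment comparisons are TMM-scaled CPM unless said otherwise, and levels and family sums by class in WT are unscaled CPM of the class total. Levels of the cell type markers, tp63 among them, are unscaled CPM in every group. Single values were tested with two-sided exact permutation tests in scipy 1.17.1 (pseudocount 0.5 at constant class shares). Sums and figures used Python 3.11.15, pandas 2.3.3, numpy 2.4.6 and matplotlib 3.10.9, and the test was tried on simulated data first. Genes were named if their mean over the group means was at least 3 CPM, if a class had at least 10 CPM and 30 UMIs in WT, or, per treatment, as the 8 called pairs of largest absolute log2 fold change with at least 10 CPM and the 4 called pathway genes of smallest adjusted p. Other genes were named after their values were seen. Alternatives were other scaling, no filter, only the 8 libraries compared, DESeq2 1.42.0, thinning to the smallest library, a common cell limit (at most 3% mitochondrial, at least 1500 genes) and leaving out each library. Pairs of libraries of a group differed by more than sampling noise, with a chi-square per degree of freedom of at least 18.3.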

Additional observations from a re-analysis of the deposited data

Results flagged for a closer look

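A gap between 1 library and the other 3 of its group, large against the whole range of the group, was found in 5 of 64 checks over 16 genes and 4 groups, and chance alone flags about 1 in 20. fzd2 was lowest in DMH0 of the DMH1 group, at 41.7 CPM, and in DJ2 of the WT group, at 46.9 CPM. fzd6 and fzd3a were highest in DMH2, at 12.4 and 18.3 CPM. wnt8a was highest in the WT library MG1, at 11.4 CPM.

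A member called higher in a class and lower in another under the same treatment was tested for the difference between the 2 effects, by a two-sided exact permutation test over 4 treated and 4 WT libraries. There were 7 such members, and for each p was 0.0286, the smallest possible, and 0.0286 after adjustment over the 7. The pairs were chosen because their calls were opposite, so the test does not stand apart from the choice. In DMH1 the effect on fzd7a was 1.11 larger on the log2 scale in PSM (0.49) than in NMP (-0.65). In NMP fzd7a was at 20.65% of its all-cells level in DMH1 and 34.6% in WT. The summed epidermal markers there were at 22.3% and 41.2%, and tp63 at 4.92% and 20.2%, in the same order. The part of background in the NMP fall was not tested. In notum-1 the effect on fzd3a was 1.76 larger in anterior neuronal cells than in PSM, that on fzd7a 1.58 larger in epidermis 1 than in dorsal neuronal cells, and that on fzd8a 2.61 larger in intermediate mesoderm than in epidermis 1. Before TMM scaling, fzd3a in anterior neuronal cells had 22.4 CPM in notum-1 and 21.5 CPM in WT. Its higher call in that class thus depends on the scaling. The effect of notum-1 on wnt11 was 3.65 larger in epidermis 3 than in anterior notochord, that on wnt11r 2.12 larger in PSM than in posterior adaxial cells, and that on wnt4a 2.35 larger in posterior notochord than in epidermis 1. The posterior adaxial level of wnt11r was under the background share of the summed epidermal markers in both groups.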

How the results depend on the processing

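The number of members called over all cells was 11 for DMH1, 11 for SU5402 and 9 for notum-1, and within classes 64, 58 and 69 pairs. With only the 8 libraries compared, DMH1 gave 20 and 118. With counts thinned to the smallest library, DMH1 gave 6 and 27, and within classes SU5402 gave 33 and notum-1 gave 23, which have fewer UMIs by construction. With the common cell limit, DMH1 gave 6 over all cells. The limit kept 44 of 4649 cells in SU1 and 396 of 6430 in DMH2, but 4961 of 5299 in WNT_DJ2. Its results thus rest on few cells in some libraries. No class kept enough cells for that limit within classes. Leaving out each library in turn gave, over all cells and within classes, 8 to 10 and 50 to 61 in DMH1, 10 to 12 and 43 to 61 in SU5402, and 7 to 11 and 42 to 70 in notum-1, with the lowest, 42, without the WT library DJ2. Without SU1 and SU2, added after the data were seen, SU5402 gave 15 and 76.

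Direction changed only for log2 fold changes that had not passed over all cells in the main test, and for wnt11r in DMH1. The turned value of fzd7a in notum-1 with the library total alone passed (edgeR adjusted p = 0.0336). With the common cell limit wnt4a, wnt11r and fzd4 were at 0.19, 0.19 and 0.34 in DMH1, fzd2 and wnt4a at -0.44 and 0.12 in SU5402, and wnt11 and fzd7a at -0.27 and -0.023 in notum-1. With the library total alone fzd4 was at 0.073 in DMH1, fzd7b and wnt4a at 0.12 and 0.20 in SU5402, and wnt11, fzd2, fzd7a, fzd3a, wnt8a, wnt4a, wnt11r and fzd4 at -0.33, -0.37, -0.36, -0.20, -0.25, -0.22, -0.13 and -0.0087 in notum-1. For wnt11r in SU5402, RLE factors, DESeq2 and thinning gave -0.0070, -0.0067 and -0.0075. For fzd2 in notum-1, RLE factors and DESeq2 gave -0.011 each, the 8 libraries alone -0.0049 and thinning -0.0093, and fzd2 in SU5402 was at -0.31 without SU1 and SU2. Leaving out single libraries gave ranges that cross 0 of -0.000050 to 0.091 for fzd7a in DMH1, of -0.48 to 0.37 for wnt5b, -0.044 to 0.28 for fzd2, -0.18 to 0.022 for wnt4a and -0.048 to 0.084 for wnt11r in SU5402, and of -0.17 to 0.15 for wnt11, -0.089 to 0.14 for fzd2 and -0.062 to 0.13 for fzd7a in notum-1. The causes were not tested.

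WT and notum-1 libraries share the name endings DJ1, DJ2, MG1 and MG2, which the labels do not explain. The correlations of same-ending libraries' deviations from their group means were 0.41, 0.08, -0.25 and 0.43. Libraries with different endings had -0.37 to 0.31. These values do not settle whether the endings mark pairs, and the main test did not take them as pairs. With the endings as a replicate block, notum-1 gave 10 members over all cells and 64 pairs within classes, and fzd2 was at -0.025. Exact tests of 3 libraries against 4 cannot reach the threshold, so leaving out a library at constant class shares says nothing about stability. Depth limits members under about 1 CPM, such as wnt3, wnt9a and wnt9b, to few UMIs per library.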
